A study of Mus musculus with 19 samples.

Results

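Described here are 10 genes: Tfap4, Robo1, Rhbdf2, Slc41a1, Zdhhc16, Zdhhc18, Pias1, Ap5z1, Pdlim5 and Fam207a. The deposited expression table lists them as TFAP4, ROBO1, RHBDF2, SLC41A1, ZDHHC16, ZDHHC18, PIAS1, AP5Z1, PDLIM5 and FAM207A, and mouse spelling is used here. They are 10 of its 19486 genes, chosen by their very large rises in the groups labelled MYC_OFF or MYC_Twist1_OFF. RNA from 19 mouse liver tumor samples, all with hepatocellular carcinoma (HCC) as the labelled tissue, was sequenced in 5 groups. MYC_HCC and MYC_Twist1_HCC had 5 libraries each, and MYC_OFF, MYC_Recur and MYC_Twist1_OFF had 3 each. Per the labels, both HCC groups were re-analysed from earlier work, and the other groups carry no such label. Any difference between an HCC group and a group without that label therefore cannot be told apart from one between deposits. No label gives strain, age, treatment, time, a promoter behind the transgenes or the meaning of OFF and Recur. Nor is it stated that each library is a different animal, so the p-values rest on a spread between samples that may be technical.

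MYC is a transcription factor that pairs with MAX, binds E-boxes in DNA and drives growth genes, among them those that build ribosomes. Tfap4 encodes AP4, a basic helix-loop-helix leucine zipper factor that binds its own kind of E-box and is known as a target of MYC. The other genes belong to unrelated machinery: a guidance receptor (Robo1), an inactive rhomboid that carries the protease ADAM17 to the cell surface (Rhbdf2), a magnesium transporter (Slc41a1), palmitoyltransferases that attach a fatty acid to proteins (Zdhhc16 and Zdhhc18), a SUMO ligase (Pias1), a subunit of the endosomal adaptor complex AP-5 (Ap5z1), a PDZ and LIM scaffold of the actin cytoskeleton (Pdlim5) and a small protein whose yeast counterpart takes part in making the small ribosomal subunit (Fam207a).

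The values are normalised signals as deposited, without a stated unit, so they are compared between libraries for 1 gene and not between genes. Their sum ran from 507868 to 690310 per library. Myc was 160 ± 19.2 in MYC_HCC (SD, n = 5), 125 ± 19.3 in MYC_Twist1_HCC (SD, n = 5) and 156 ± 3.14 in MYC_Recur (SD, n = 3), against 45.7 ± 13.1 in MYC_OFF (SD, n = 3) and 39.7 ± 6.65 in MYC_Twist1_OFF (SD, n = 3). Twist1 was at most 0.27 in every library and at most 0.12 in MYC_Twist1_HCC, so it did not show the difference that the labels name. The summed hepatocyte markers (11 of 12 in the table) were lower in the OFF groups, at 3870 to 4250 in MYC_OFF and 3760 to 4430 in MYC_Twist1_OFF against 6800 to 8200 in MYC_Recur, 5500 to 7730 in MYC_Twist1_HCC and 8040 to 16100 in MYC_HCC. T and NK cell markers (10 of 10 in the table) summed to 8.93 to 30.2 in MYC_OFF and 13.3 to 15.6 in MYC_Twist1_OFF, against 3.04 to 9.43 over both HCC groups. Endothelial markers (6 of 6) summed to 29.5 to 84 and 63.7 to 110 in the OFF groups, in the same order. They summed to 8.98 to 20.6 in MYC_Twist1_HCC and 11.2 to 80.2 in MYC_HCC, which overlapped MYC_OFF. Macrophage markers (8 of 8) summed to 256 to 352 in MYC_OFF and 201 to 262 in MYC_Twist1_OFF. Their sums were 194 to 532 in MYC_HCC and 273 to 322 in MYC_Twist1_HCC. Neutrophil markers (4 of 5) summed to 263, 132 and 37.2 in MYC_OFF and 135, 53.8 and 53.7 in MYC_Twist1_OFF, against 20.5 to 63.1 over the HCC groups, so 3 of the 6 OFF libraries lay inside the HCC range. Erythroid markers (5 of 6) were lower in the OFF groups without overlap, at 138 to 229 and 155 to 170, against 659 to 826 in MYC_Recur, 359 to 739 in MYC_Twist1_HCC and 460 to 841 in MYC_HCC. The fibroblast marker Dcn was listed at 0 in every OFF library, but its whole list, stellate and fibroblast markers (8 of 8), was not. Sums of that list spanned 20.9 to 50.6 for MYC_OFF, overlapping the MYC_HCC span of 32.1 to 136. For MYC_Twist1_OFF they spanned 31.5 to 38.1, wholly above the MYC_Twist1_HCC span of 23.1 to 29.1. In MYC_Recur that list spanned 36.4 to 93.5, also above MYC_Twist1_HCC but overlapping MYC_HCC. Endothelial sums in MYC_Recur were 4.28 to 10.2, wholly below MYC_HCC but overlapping MYC_Twist1_HCC. The MYC_Recur sums were 4.99 to 6.96 for T and NK cells, 336 to 392 for macrophages and 32.4 to 52.3 for neutrophils. B cell markers (4 of 4) summed to 1.43 to 29.3 in MYC_Recur and to at most 2.19 in any other group. Cholangiocyte markers (6 of 6) summed to 29.4 to 36.3 in MYC_OFF and 31.3 to 39.7 in MYC_Twist1_OFF. Their sums were 50.1 to 58.6 in MYC_Recur, 46.9 to 61.2 in MYC_Twist1_HCC and 12.1 to 77.9 in MYC_HCC. The part of these marker differences in the results below was not tested, and in bulk samples fewer cells of a type and less RNA per cell cannot be told apart. MYC_HCC 4 stood apart from its group, with a hepatocyte sum of 16134 and an endothelial sum of 80.2, and MYC_HCC 5 had the next highest values, at 10013 and 19.6.

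Every gene of the set was high in both OFF groups and low in the other groups. All 10 had every MYC_OFF library above every MYC_HCC library, where 15.7% of the 13253 genes tested did so, and all 10 had every MYC_Twist1_OFF library above every MYC_Twist1_HCC library, where 13.4% did so. These are the values that chose the genes, so they are a description and carry no test. Together the 10 genes took 0.004% to 0.016% of a library's summed values in MYC_HCC. The share was 0.03% to 0.081% in MYC_Twist1_HCC, and 0.019% to 0.027% in MYC_Recur. In MYC_OFF they took 0.859% to 2.288%, and in MYC_Twist1_OFF 1.253% to 1.78%. The MYC_Recur libraries, like the OFF libraries, are not labelled as re-analysed, and no label says whether these groups were prepared or sequenced together. The difference from the matching HCC group, on the log2(value + 1) scale, had a median over the 10 genes of 6.25 for MYC_OFF and 4.78 for MYC_Twist1_OFF, where the median over all genes tested was -0.38 and -0.32. Under 3 other scalings of the libraries the median over all genes lay between -0.04 and 0.13 for MYC_OFF and between -0.09 and 0.08 for MYC_Twist1_OFF.

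**Figure D1:**
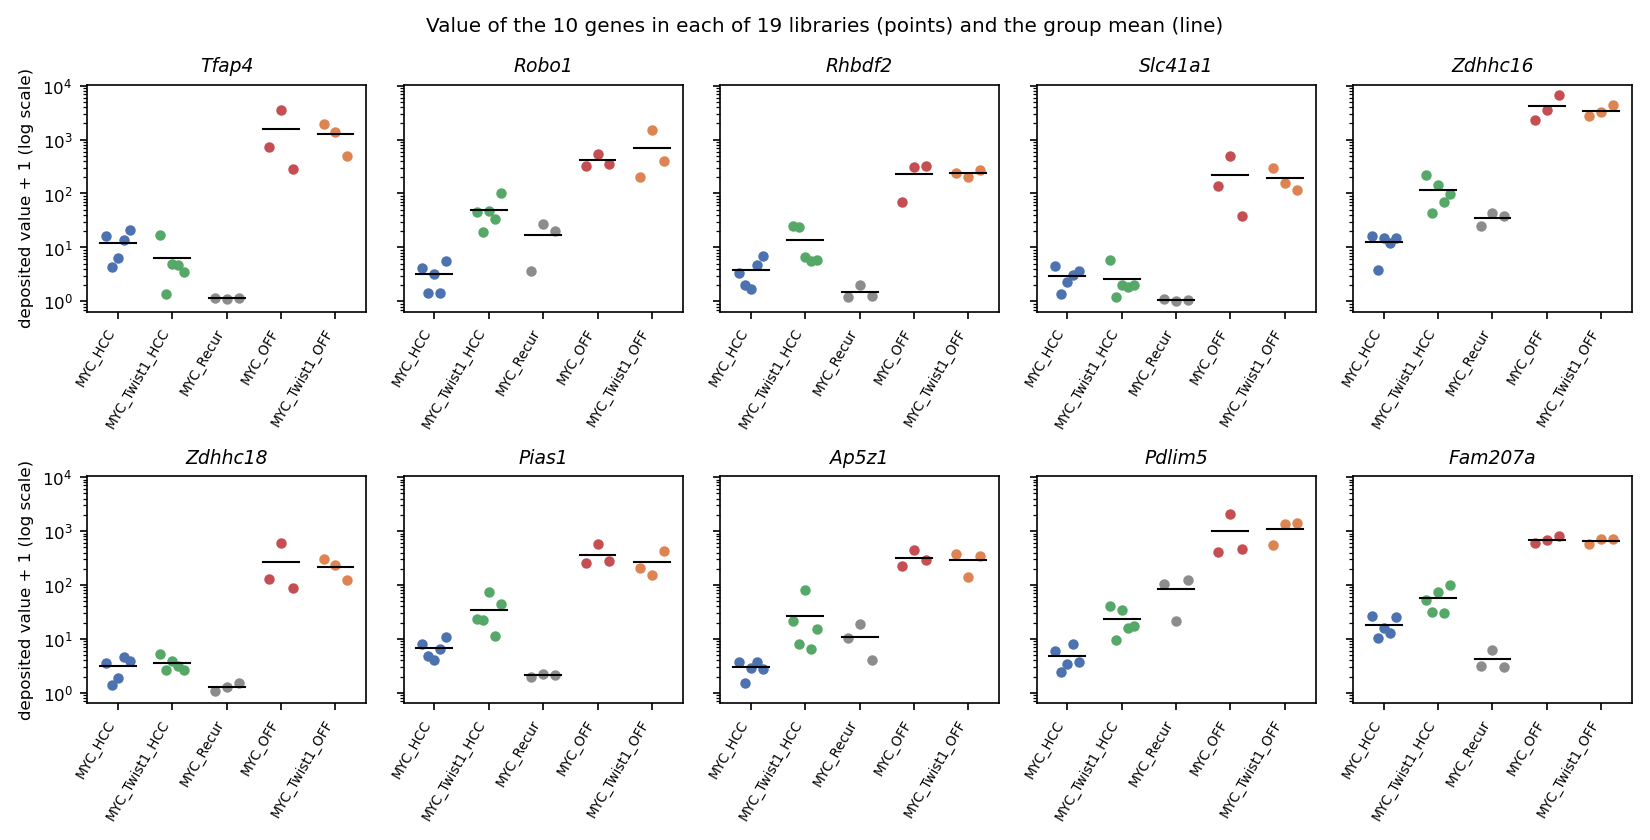
Deposited value + 1 on a log scale (vertical axis) for each of the 10 genes in 19 libraries, by group; points are libraries and lines are group means. In every panel the 3 MYC_OFF and 3 MYC_Twist1_OFF libraries lie above all libraries of the other groups.

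Tfap4, the gene of the AP4 transcription factor, was 15.10, 3.31, 5.37, 12.72 and 19.96 in the MYC_HCC libraries and 738.53, 3602.62 and 285.59 in the MYC_OFF libraries. It was 15.85, 0.39, 3.89, 3.69 and 2.49 in MYC_Twist1_HCC and 1915.83, 1356.85 and 488.20 in MYC_Twist1_OFF. No OFF library came near the HCC range: the lowest MYC_OFF value was 14.3 times the highest MYC_HCC value, and the lowest MYC_Twist1_OFF value was 30.8 times the highest MYC_Twist1_HCC value. The difference between MYC_Twist1_OFF and MYC_Twist1_HCC, 7.91 on the log2(value + 1) scale, ranked 1 among all genes tested. In MYC_Recur, Tfap4 was 0.16, 0.09 and 0.17, the lowest group.

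Robo1 encodes a cell surface receptor for the secreted Slit ligands, first known from axon guidance. Its values in MYC_HCC were 3.22, 0.46, 2.16, 0.44 and 4.59, and in MYC_Twist1_HCC 43.75, 18.13, 47.07, 32.30 and 99.62. The OFF libraries were again the highest, at 327.10, 550.06 and 354.79 in MYC_OFF and 202.15, 1494.43 and 392.52 in MYC_Twist1_OFF. Because MYC_Twist1_HCC already stood above MYC_HCC, the OFF difference was 7.19 in the MYC groups and 3.54 in the Twist1-labelled groups on the log2(value + 1) scale. The ligands were near 0: Slit1 and Slit2 were listed at 0 in every MYC_Twist1_OFF library, and no group mean of Slit1, Slit2 or Slit3 passed 0.1.

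Rhbdf2 encodes iRhom2, which escorts ADAM17, the protease that releases TNF and ligands of the EGF receptor. It ran from 0.73 to 5.93 in MYC_HCC and from 4.66 to 23.73 in MYC_Twist1_HCC. MYC_OFF 1 was the lowest OFF library at 68.79, and the other MYC_OFF libraries were 315.04 and 317.40. The MYC_Twist1_OFF libraries were closer together, at 241.60, 199.28 and 266.58.

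Slc41a1 encodes a carrier that moves magnesium out of the cell. Its values were 3.58, 0.40, 1.25, 2.13 and 2.65 in MYC_HCC and 135.25, 487.15 and 37.27 in MYC_OFF, a spread of 13.1 times between the lowest and highest OFF library. In MYC_Twist1_OFF it was 293.25, 158.87 and 117.61. In MYC_Recur it was 0.09, 0.00 and 0.04, the lowest group and listed at 0 in 1 library.

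Zdhhc16 and Zdhhc18 encode palmitoyltransferases, membrane enzymes of a large family that anchors proteins to membranes. Zdhhc16 was 15.47, 2.82, 14, 10.92 and 13.80 in MYC_HCC and 2280.13, 3596.76 and 6740.67 in MYC_OFF. Its lowest MYC_OFF library was 147 times its highest MYC_HCC library, the widest such gap of the 10 genes, and its difference of 8.43 on the log2(value + 1) scale ranked 2 among all genes tested. Zdhhc18 was 2.64, 0.38, 0.89, 3.70 and 2.97 in MYC_HCC and 127.56, 587.76 and 86.21 in MYC_OFF. Both enzymes were also high in MYC_Twist1_OFF, Zdhhc16 at 2761.05, 3236.23 and 4287.55 and Zdhhc18 at 297.26, 230.84 and 120.88.

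Pias1, a ligase that attaches the modifier SUMO to proteins, was 7.16, 3.78, 3.07, 5.45 and 9.86 in MYC_HCC and 251.49, 566.69 and 272.59 in MYC_OFF. In the Twist1-labelled groups it was 22.74, 21.02, 72.26, 10.19 and 42.69 in MYC_Twist1_HCC and 203.73, 154.34 and 429.43 in MYC_Twist1_OFF. This was the narrowest separation of the set on the log2(value + 1) scale, a difference of 3.07, though the groups did not overlap. Ap5z1, the zeta subunit of AP-5, was 0.55 to 2.82 in MYC_HCC and 219.75, 444.49 and 286.67 in MYC_OFF. In MYC_Twist1_OFF it was 375.32, 140.63 and 348.19, and the lowest of these was 1.74 times the highest MYC_Twist1_HCC library, 80.97.

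Pdlim5, a scaffold that links protein kinase C to the actin cytoskeleton, was 4.92, 1.48, 2.48, 7.05 and 2.81 in MYC_HCC and 415.39, 2077.41 and 456.12 in MYC_OFF. It was 538.78, 1358.82 and 1382.21 in MYC_Twist1_OFF. Fam207a was the steadiest gene of the set: it was 591.27, 692.06 and 795.57 in MYC_OFF and 579.76, 707.63 and 711.13 in MYC_Twist1_OFF, a spread of 1.37 times over the 6 OFF libraries. In MYC_HCC it was 25.55, 9.47, 15.04, 11.73 and 24.92, the highest MYC_HCC level relative to MYC_OFF among the 10 genes, with a ratio of OFF to HCC means of 40.

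The set is not the whole of the upper end of the table. In MYC_OFF against MYC_HCC, 42 genes had a log2(value + 1) difference at least as large as the smallest of the set (Fam207a, 5.33), and 32 of them were outside it. The largest outside it were Rsl1 (8.43), Cox6b2 (6.83) and Hist2h3c1 (6.79), and the next gene below Fam207a was Inpp5d (5.32). In MYC_Twist1_OFF against MYC_Twist1_HCC, 139 genes reached the smallest of the set (Pias1, 3.07), 129 of them outside it, led by Zfp719 (5.99), Erf (5.86) and Csnk1a1 (5.59), and the next below Pias1 was Gcnt1 (3.05).

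The OFF groups overlapped each other for all 10 genes. MYC_Twist1_OFF against MYC_OFF gave differences from -0.51 (Pias1) to 0.45 (Pdlim5) on the log2(value + 1) scale, and over all genes tested 2.13% lay wholly higher and 2.22% wholly lower. Leaving out 1 library turned the sign of this difference for 8 of the genes in at least 1 case, so no direction is read from it. Within the OFF libraries the genes did not move as 1 block. MYC_OFF 2 was the highest OFF library for 6 genes, MYC_OFF 3 for Rhbdf2, Zdhhc16 and Fam207a, and MYC_Twist1_OFF 2 for Robo1. Tfap4, Slc41a1 and Zdhhc18 put the 6 libraries in the same order, with MYC_OFF 3 lowest, then MYC_Twist1_OFF 3, MYC_OFF 1, MYC_Twist1_OFF 2, MYC_Twist1_OFF 1 and MYC_OFF 2 highest. Of the 13253 genes tested, 9 had this order, which is 0.0679%. Among the 45 pairs of the 10 genes, the 3 pairs formed by these genes were the pairs that shared an order. The likeness was seen in the values and then counted in the same libraries, so it is a description.

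**Figure D2:**
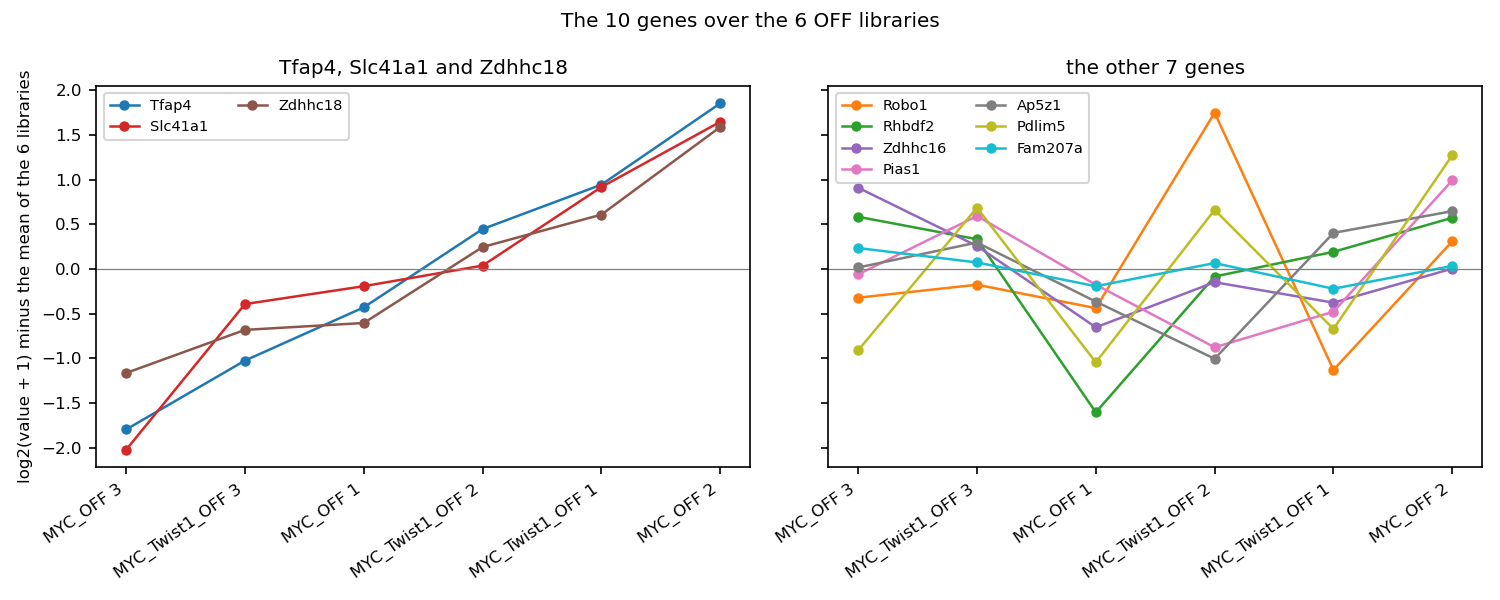
log2(value + 1) of each gene minus its mean over the 6 OFF libraries (vertical axis), with the libraries on the horizontal axis in the order of Tfap4. The left panel shows Tfap4, Slc41a1 and Zdhhc18, which rise from MYC_OFF 3 to MYC_OFF 2 in the same order, and the right panel the other 7 genes, which follow other orders, with Fam207a nearly level.

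Differences between the groups outside OFF were tested with limma on log2(value + 1) over all 13253 genes with a value of at least 1 in at least 3 libraries, with a Benjamini-Hochberg adjusted p under 0.05 as the call. All 10 genes passed this filter, also when the 6 OFF libraries were left out. Between the HCC groups, 6 of the 10 genes were higher in MYC_Twist1_HCC than in MYC_HCC: Robo1, Zdhhc16, Ap5z1, Pdlim5, Pias1 and Fam207a. Over all genes tested, 3.20% were called higher and 3.23% lower in this comparison. The genes were chosen by rises over the HCC groups, which favours low values there, so the 3 comparisons tested, each with an HCC group on one side, are not independent of that choice. In all 6 every MYC_Twist1_HCC library was above every MYC_HCC library, which 5.73% of all genes showed. Robo1 differed most, from 2.17 ± 1.79 (SD, n = 5) to 48.2 ± 30.9 (SD, n = 5), a log2(value + 1) difference of 3.95 with a standard error of 0.60 (limma, adjusted p = 0.000915). Zdhhc16 rose from 11.4 ± 5.07 (SD, n = 5) to 114 ± 68.8 (SD, n = 5), a difference of 3.16 ± 0.44 (SE; limma, adjusted p = 0.000437). Its MYC_Twist1_HCC libraries were 217.34, 41.92, 143.46, 69.99 and 97.99, none of them in the MYC_HCC range.

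The other calls were smaller. Ap5z1 rose by 2.58 ± 0.56 on the log2(value + 1) scale (SE; limma, adjusted p = 0.0121), from 1.96 ± 0.919 (SD, n = 5) to 25.6 ± 31.5 (SD, n = 5), with MYC_Twist1_HCC 3 at 80.97 and the others between 5.41 and 20.12. Pdlim5 rose by 2.25 ± 0.55 (SE; limma, adjusted p = 0.0216), with MYC_Twist1_HCC values of 39.83, 8.66, 33.17, 14.76 and 16.71. Pias1 rose by 2.14 ± 0.42 (SE; limma, adjusted p = 0.00686) and Fam207a by 1.61 ± 0.34 (SE; limma, adjusted p = 0.00876), the latter from 17.3 ± 7.48 (SD, n = 5) to 57.4 ± 30.0 (SD, n = 5). The call of Pdlim5 was lost with a pseudocount of 5 and without MYC_HCC 2, MYC_HCC 5, MYC_Twist1_HCC 1 or MYC_Twist1_HCC 3, with an adjusted p of at most 0.0656. Without MYC_HCC 4 and 5 together, 6 genes were called, with Rhbdf2 in place of Pdlim5.

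The remaining 4 genes were not called between the HCC groups. Rhbdf2 was close, with a difference of 1.68 (95% interval 0.61 to 2.76; limma, adjusted p = 0.0563), and it passed in 4 of 21 alternatives. Zdhhc18 differed by 0.28 (95% interval -0.65 to 1.21), Slc41a1 by -0.32 (-1.44 to 0.80) and Tfap4 by -1.22 (-2.60 to 0.17), all on the log2(value + 1) scale. These 3 are the genes that shared an order over the OFF libraries. The intervals leave room for a difference in either direction, so these genes are not shown to be at the same level in both HCC groups.

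MYC_Recur, which was compared with each HCC group in turn, so that all 3 tested comparisons share libraries, separated the genes. Against MYC_HCC, Pdlim5, Robo1 and Zdhhc16 were higher and Tfap4, Fam207a and Pias1 were lower, where 6.90% of all genes were called higher and 3.93% lower. Pdlim5 was 103.14, 20.89 and 122.21 in MYC_Recur, all above the highest MYC_HCC library at 7.05, a log2(value + 1) difference of 3.91 ± 0.63 (SE; limma, adjusted p = 0.000759). Fam207a was 2.12, 5.33 and 2.06, all below the lowest MYC_HCC library at 9.47. It fell by 2.13 ± 0.39 (SE; limma, adjusted p = 0.00207). Tfap4 fell by 3.20 ± 0.76 (SE; limma, adjusted p = 0.0113), to values of 0.16, 0.09 and 0.17, and this call was lost with a pseudocount of 5 (adjusted p = 0.132) and without MYC_HCC 4 and 5 (adjusted p = 0.0746).

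The other 3 calls between MYC_Recur and MYC_HCC depended on the processing. Zdhhc16 was 24.38, 42.29 and 36.81 in MYC_Recur, above every MYC_HCC library (1.65 ± 0.50, SE; limma, adjusted p = 0.0435). Robo1 was 2.65, 26.37 and 19.08, and its groups overlapped (2.20 ± 0.69, SE; limma, adjusted p = 0.0485). Pias1 was 0.97, 1.27 and 1.15, below every MYC_HCC library (it fell by 1.60 ± 0.49, SE; limma, adjusted p = 0.0423). Each of these lost its call under all 3 other scalings, with a pseudocount of 5, with no filter on low values, under a block on the replicate number (adjusted p at most 0.235 for Robo1, 0.27 for Pias1 and 0.154 for Zdhhc16 over all alternatives) and without several single libraries, MYC_HCC 4, MYC_Recur 2 and MYC_Recur 3 among them for all 3. Without MYC_HCC 4 and 5 together, Pdlim5 and Fam207a alone were called. Ap5z1 (1.71, 95% interval 0.34 to 3.07), Rhbdf2 (-1.17, -2.41 to 0.07), Slc41a1 (-1.41, -2.70 to -0.12) and Zdhhc18 (-1.13, -2.20 to -0.05) were not called.

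Against MYC_Twist1_HCC, MYC_Recur was lower for Fam207a, Pias1 and Rhbdf2, where 3.03% of all genes were called lower, and none of the 10 was called higher, where 3.48% were. Fam207a and Pias1 both fell by 3.74 on the log2(value + 1) scale (SE 0.39, limma, adjusted p = 3.24e-05, and SE 0.49, limma, adjusted p = 0.000195). Rhbdf2 was 0.23, 0.98 and 0.28 in MYC_Recur, below every MYC_Twist1_HCC library, and fell by 2.86 ± 0.59 (SE; limma, adjusted p = 0.00709), a call lost with a pseudocount of 5 (adjusted p = 0.0574). For 6 genes the libraries did not overlap and MYC_Recur was lower, against 6.91% of all genes; these were the 3 called and Tfap4, Slc41a1 and Zdhhc18, whose levels were low in both groups. Pdlim5 had the opposite sign, 1.66 (95% interval 0.34 to 2.99; limma, adjusted p = 0.122). It was the gene of the set whose MYC_Recur level lay nearest to its OFF level: its MYC_Recur mean was 0.0835 of its MYC_OFF mean, and that of every other gene was at most 0.039. Every MYC_Recur library was below every MYC_OFF library for all 10 genes, which 12.2% of all genes showed. The genes were chosen by their OFF values, so this is a description and carries no test.

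**Figure D3:**
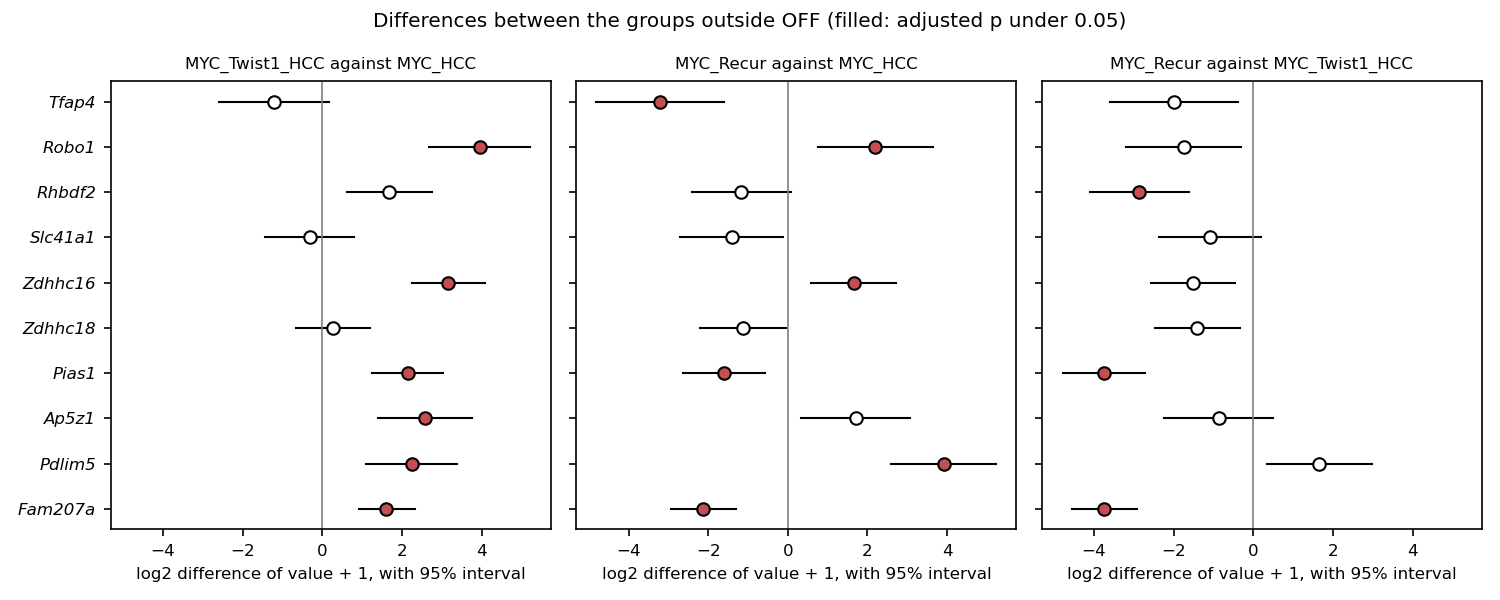
Differences of log2(value + 1) with 95% intervals (horizontal axis) for the 10 genes in the 3 comparisons outside the OFF groups; filled points have a limma adjusted p under 0.05. Robo1 and Zdhhc16 stand furthest right in MYC_Twist1_HCC against MYC_HCC, and in MYC_Recur against MYC_HCC the genes lie on both sides of 0, from Tfap4 at -3.20 to Pdlim5 at 3.91.

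Below the OFF groups the levels fell in different orders, given here as means without a test of each step. For Robo1, Zdhhc16 and Ap5z1 the group means ran from MYC_Twist1_HCC (48.2, 114 and 25.6) through MYC_Recur (16.0, 34.5 and 10.1) to MYC_HCC (2.17, 11.4 and 1.96). For each of these genes MYC_Recur overlapped MYC_Twist1_HCC, and for Robo1 it also overlapped MYC_HCC. For Fam207a, Pias1 and Rhbdf2 the means ran from MYC_Twist1_HCC (57.4, 33.8 and 12.5) through MYC_HCC (17.3, 5.86 and 2.76) to MYC_Recur (3.17, 1.13 and 0.497). For Rhbdf2, MYC_HCC overlapped both other groups. Pdlim5 alone ran from MYC_Recur (82.1) through MYC_Twist1_HCC (22.6) to MYC_HCC (3.75), of which the first and second groups overlapped. Tfap4, Slc41a1 and Zdhhc18 had HCC groups that overlapped (means of 11.3 and 5.26, 2.0 and 1.59, and 2.12 and 2.55) and a MYC_Recur mean below both (0.140, 0.0433 and 0.303). For Zdhhc18, MYC_Recur overlapped MYC_HCC.

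Likeness of pattern was measured as the root mean square difference of log2(value + 1) over the 19 libraries, with each gene centred on its mean. The closest pair of the set was Slc41a1 and Zdhhc18 (0.45), then Fam207a and Pias1 (0.55), and the furthest was Tfap4 and Robo1 (2.67). The nearest genes were sought among the 13253 genes tested, leaving out predicted genes, pseudogenes and clone symbols. Those nearest to Tfap4 were Slc41a1 (0.98) and Zdhhc18 (1.12), and both of these had Spib as their nearest gene outside the set (0.87 and 0.84). Fam207a lay nearest to Pias1 and then to Ifi27l2a (0.82), and Pias1 to Fam207a and then to E4f1 (0.79). Rhbdf2 lay nearest to Wipf2 (0.90) and E4f1 (0.95), Ap5z1 to Slc16a4 (0.78) and Cep76 (0.91), and Pdlim5 to Mbd5 (1.01) and She (1.22). Robo1 lay nearest to Ntan1 (0.94) and Rsl1 (0.95), and Zdhhc16 to Rsl1 (1.01) and Ap5z1 (1.05). All libraries and their scale are shared by every gene here, and the large OFF difference makes any such genes alike.

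**Figure D4:**
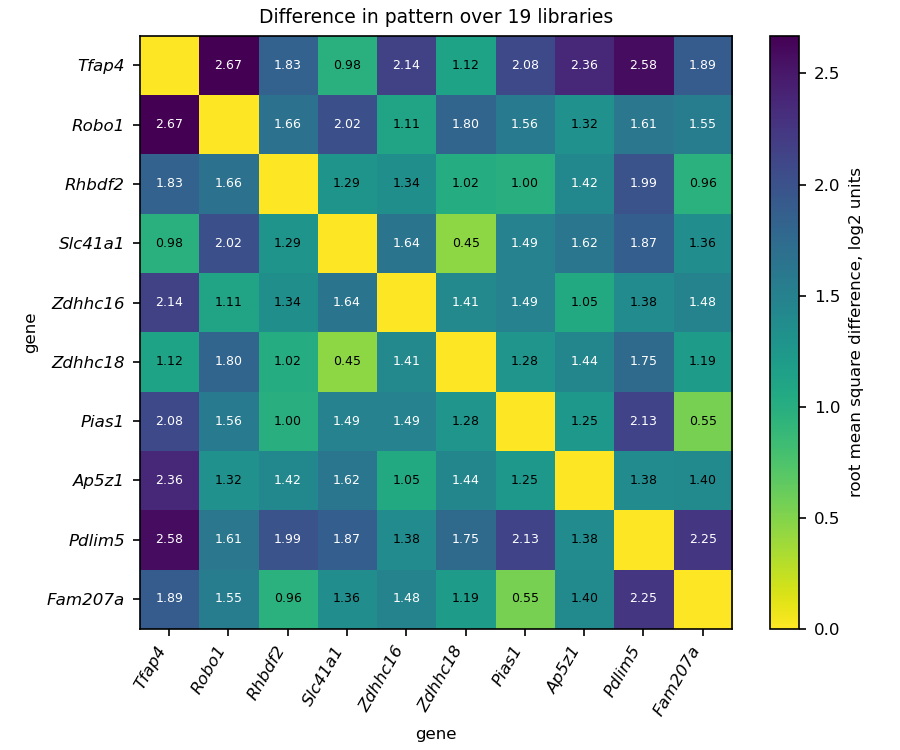
Root mean square difference of centred log2(value + 1) over 19 libraries between each pair of the 10 genes (colour and printed number, log2 units; axes list the genes). The light squares are Slc41a1 with Zdhhc18 (0.45) and Fam207a with Pias1 (0.55), and the darkest is Tfap4 with Robo1 (2.67).

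Start regions are shown for 4 genes: Slc41a1 and Zdhhc18, whose values were the most alike, and Pias1 and Ap5z1, which together with Zdhhc18 hold the E-boxes found. RefSeq promoter windows (GRCm38.p6) were matched for 8 of the 10 genes, 9 windows in all since Pdlim5 has 2. Tfap4 and Rhbdf2 had no window. The 250 bases before the RefSeq start were searched on both strands. For Slc41a1, Zdhhc18 and Pias1 this start lies inside the annotated span of the gene, given below, so their windows precede an internal start. The same holds for the window of Robo1 and 1 of the 2 windows of Pdlim5. All 250 bases of the Fam207a window and 172 bases of the Zdhhc16 window lie in an annotated exon. The sequences run 5′ to 3′ on the strand of the gene. Bases in annotated exons were removed from the ends, and capitals mark the E-box CACGTG, the E-box CAGCTG and the GC box GGGCGG on either strand.
Slc41a1, chr1:131827762-131827976, plus strand: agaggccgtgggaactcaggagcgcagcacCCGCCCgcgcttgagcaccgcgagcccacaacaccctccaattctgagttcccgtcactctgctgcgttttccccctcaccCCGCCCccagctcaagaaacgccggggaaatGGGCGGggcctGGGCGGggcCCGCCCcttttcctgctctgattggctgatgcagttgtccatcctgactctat
Zdhhc18, chr4:133633470-133633679, minus strand: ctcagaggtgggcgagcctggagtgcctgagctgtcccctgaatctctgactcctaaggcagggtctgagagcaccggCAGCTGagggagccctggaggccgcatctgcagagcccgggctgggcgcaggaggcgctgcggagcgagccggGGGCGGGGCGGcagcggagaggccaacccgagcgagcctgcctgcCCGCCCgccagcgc
Pias1, chr9:62980884-62981129, minus strand: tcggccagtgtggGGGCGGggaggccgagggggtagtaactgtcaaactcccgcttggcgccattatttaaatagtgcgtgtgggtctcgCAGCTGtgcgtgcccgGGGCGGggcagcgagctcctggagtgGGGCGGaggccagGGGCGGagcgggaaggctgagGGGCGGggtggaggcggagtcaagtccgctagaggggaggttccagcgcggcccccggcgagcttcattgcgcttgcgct
Ap5z1, chr5:142463681-142463930, plus strand: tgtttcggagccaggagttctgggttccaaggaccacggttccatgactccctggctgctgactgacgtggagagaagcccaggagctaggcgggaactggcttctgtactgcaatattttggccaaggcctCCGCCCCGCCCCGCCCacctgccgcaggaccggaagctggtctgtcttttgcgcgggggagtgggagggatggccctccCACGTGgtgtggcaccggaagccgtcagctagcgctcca

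CACGTG, the E-box that MYC and MAX bind, was found in the window of Ap5z1 and in no other window of the set, and 6.02% of the 32851 windows of all genes hold it. CAGCTG, the core that AP4 binds, was found in the windows of Zdhhc18 and Pias1, and 13% of all windows hold it. GGGCGG was found in 5 of the 9 windows, those of Slc41a1, Pdlim5, Zdhhc18, Ap5z1 and Pias1, and 32.7% of all windows hold it. TATAAA was found in 1 window of Pdlim5, and 12.4% of all windows hold it. The median GC content was 62.8% in the windows of the set and 52.4% in all windows. These matches are a description of letters, and no binding was measured.

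The genes lay on 9 chromosomes of GRCm38, and all are annotated as protein coding in GENCODE. Slc41a1 is on chromosome 1 (131827493 to 131848865, plus strand), Pdlim5 on chromosome 3 (142239590 to 142395696, minus strand), Zdhhc18 on chromosome 4 (133605299 to 133650154, minus strand) and Ap5z1 on chromosome 5 (142463944 to 142478710, plus strand). Pias1 is on chromosome 9 (62878368 to 62987924, minus strand), Fam207a on chromosome 10 (77486661 to 77515785, minus strand) and Rhbdf2 on chromosome 11 (116598165 to 116627019, minus strand). Tfap4 (chromosome 16, 4544661 to 4559854, minus strand) and Robo1 (chromosome 16, 72308306 to 73046095, plus strand) share a chromosome but lie far apart. Zdhhc16 (chromosome 19, 41933480 to 41944104, plus strand) overlaps Mms19 on the opposite strand, and no source states if counting used strand, so reads from shared bases cannot be told apart. Mms19, a gene of iron-sulfur cluster assembly, had log2(value + 1) differences of 1.87 and 1.12 in the OFF comparisons, against 8.43 and 5.09 for Zdhhc16. Exosc1, an exosome gene 57 bases from Zdhhc16 on the other strand, had -1.52 and -1.24.

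Most neighbours did not share the high OFF values, nor did most genes of the table. The nearest annotated gene on each side and any overlapping gene in the table gave 21 neighbours, of which 15 were tested. Their median difference was 0.00 in MYC_OFF against MYC_HCC and -0.30 in MYC_Twist1_OFF against MYC_Twist1_HCC. Over all genes tested it was -0.38 and -0.32. A log2(value + 1) difference above 2 was found for 3 of the 15 in the first comparison and 1 in the second, and 0 fell by as much. Cygb, the gene of the haem protein cytoglobin and 18576 bases from Rhbdf2 on the same strand, had the largest difference of these neighbours in both comparisons, at 5.18 and 4.08, with a mean of 2.96 in MYC_HCC, 142 in MYC_OFF and 92.4 in MYC_Twist1_OFF. Foxk1, 1933 bases before Ap5z1 on the same strand, had 2.71 and 1.99, and Sfn, 3131 bases from Zdhhc18, had 2.79 and 1.78. Srl and Glis2, on either side of Tfap4, had 0.10 and 0.06 in MYC_OFF against MYC_HCC, while Tfap4 had 6.45.

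Most tested relatives of these genes were not higher in the OFF groups. Over all genes tested, 18.9% were called higher and 39.4% lower in MYC_OFF against MYC_HCC, and 13.1% higher and 33.5% lower in MYC_Twist1_OFF against MYC_Twist1_HCC. With other scalings the split of calls moved: the share of calls that were higher was 32.5% as deposited and 47.2% to 55.4% under the 3 scalings in MYC_OFF against MYC_HCC, and 28% and 43% to 54.8% in the Twist1-labelled comparison. The lists' counts moved with it: under the 3 scalings MYC_OFF against MYC_HCC had 8 to 10 genes higher and 6 to 8 lower in the ZDHHC list, 5 to 6 and 7 to 9 among adaptors, 4 to 6 and 7 to 8 among SUMO genes, 5 to 6 and 2 among rhomboids, 6 to 7 and 6 to 8 in the list of Tfap4 relatives, and 3 to 4 and 15 to 16 in ribosome biogenesis. In the Twist1-labelled comparison the scaled counts were 7 to 8 higher and 4 to 7 lower in the ZDHHC list, 3 to 4 and 5 to 8 among adaptors, 3 to 5 and 6 to 7 among SUMO genes, 3 and 1 to 3 among rhomboids, 4 to 6 and 6 to 7 for the Tfap4 relatives, and 0 to 1 and 14 to 16 in ribosome biogenesis. The PDZ and LIM list had 2 higher and 2 lower in MYC_OFF against MYC_HCC under each scaling, magnesium transport 3 and 2 to 3, and the Robo list 1 and 2. In the Twist1-labelled comparison these lists had 1 and 2, 2 and 2, and 1 and 1. Falls outnumbered rises in both comparisons, as deposited and under each of the 3 scalings, in the ribosome biogenesis, adaptor and SUMO lists. This did not hold in the ZDHHC, rhomboid, PDZ and LIM, magnesium and Robo lists or among the Tfap4 relatives. The families below leave out the 10 genes, with MYC_OFF against MYC_HCC first and the Twist1-labelled comparison second, and all differences are on the log2(value + 1) scale. The 10 genes were chosen by their rises in these comparisons, so any contrast with their relatives is a description. Mnt, Nipa2 and Nob1 are named although outside the rule for names, and were chosen after their values were seen.

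**Figure D5:**
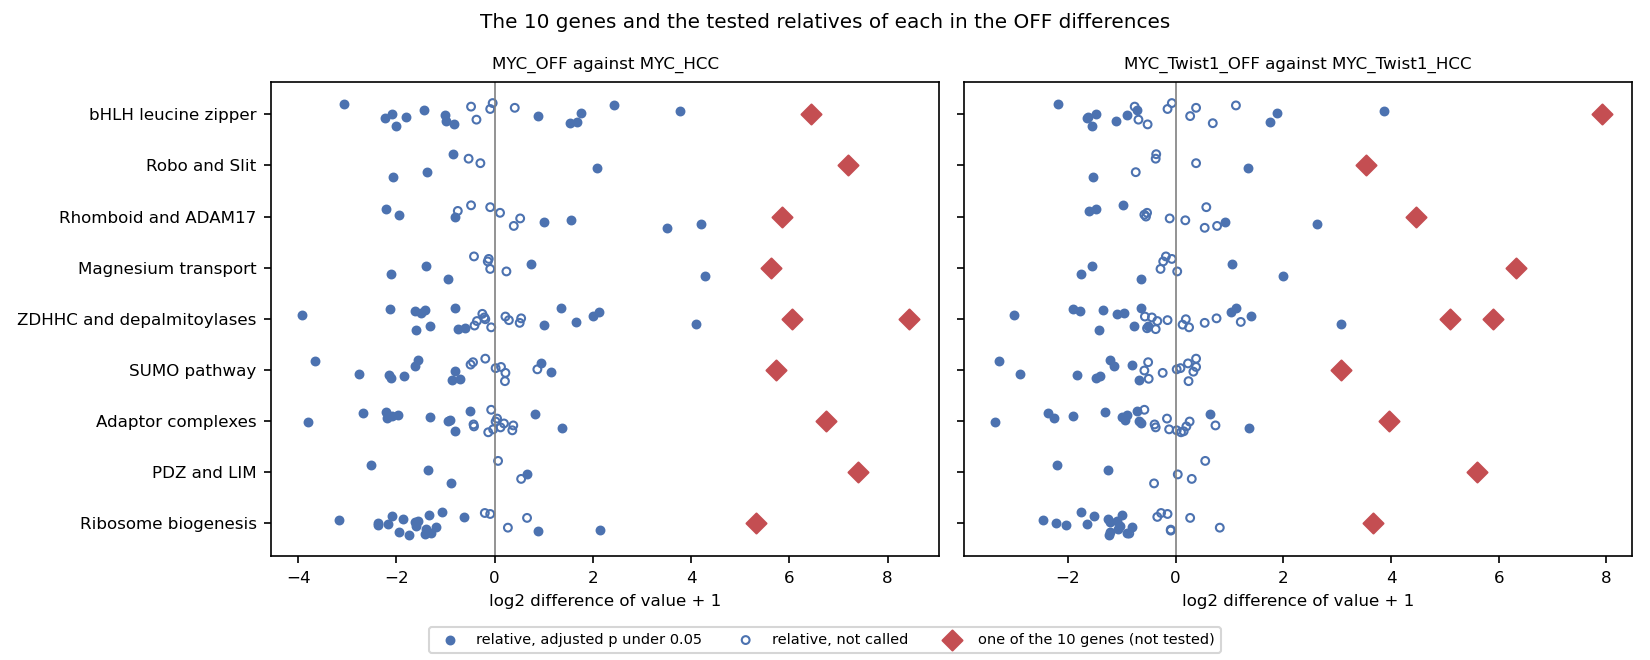
Differences of log2(value + 1) in the OFF comparisons (horizontal axis) for the tested relatives of each gene (circles, filled where the limma adjusted p was under 0.05) and for the 10 genes (diamonds, not tested). In every row of both panels except that of the ZDHHC family, with 2 diamonds, a single diamond lies to the right of all its relatives. The 10 genes were chosen by these rises, so the place of the diamonds is a description.

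Among the basic helix-loop-helix leucine zipper relatives of Tfap4, 6 of 20 tested genes rose and 9 fell, then 3 and 8. Max, the partner of MYC, fell from 53.4 ± 13.4 in MYC_HCC (SD, n = 5) to 5.43 ± 1.01 in MYC_OFF (SD, n = 3), a change of -3.06 (limma, adjusted p = 3.52e-07). It fell by 2.18 in the Twist1-labelled groups (limma, adjusted p = 2.45e-05). Mnt, a MAX partner that represses MYC targets, rose by 3.77 (limma, adjusted p = 0.000207) and 3.86 (limma, adjusted p = 0.000284). Max also fell by 1.22 in MYC_Twist1_HCC against MYC_HCC (limma, adjusted p = 0.0113), a contrast in which Mxi1 rose by 0.67 (limma, adjusted p = 0.0385, at most 0.0988 over the alternatives, 8 of which lost the call).

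Of the ZDHHC enzymes and the thioesterases that undo their work, 6 of 26 rose and 10 fell, then 4 and 10. Zdhhc24 was the relative that came nearest to the pair of the set, from 5.67 ± 2.32 in MYC_HCC (SD, n = 5) to 143 ± 132 in MYC_OFF (SD, n = 3). It rose by 4.10 (limma, adjusted p = 9.22e-07) and 3.07 (limma, adjusted p = 4.02e-05). Zdhhc1 rose by 2.0 and 1.4 (limma, adjusted p = 0.000277 and 0.00667), the latter lost without MYC_Twist1_OFF 1, while Zdhhc9, which palmitoylates RAS proteins, fell by 1.60 and 1.42 (limma, adjusted p = 2.94e-06 and 2.58e-05). SELK, the symbol of selenoprotein K, a cofactor of another family member, fell by 3.93 and 3.0 (limma, adjusted p = 2.61e-07 and 1e-05). The family had no call in MYC_Twist1_HCC against MYC_HCC, where Zdhhc16 was higher.

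Robo1 had few relatives to compare. Of the 12 Robo, Slit and signalling genes listed, 6 were tested, and 1 rose and 3 fell, then 1 and 1. Robo4, the endothelial Robo, was 1.48 ± 1.30 in MYC_HCC (SD, n = 5) and 1.05 ± 1.19 in MYC_OFF (SD, n = 3) and was not called (limma, adjusted p = 0.592). Srgap1, which acts below Robo receptors on a small GTPase, rose by 2.09 and 1.35 (limma, adjusted p = 0.000369 and 0.0138), the latter lost without MYC_Twist1_OFF 1. Usp33, which binds and stabilises ROBO1, fell by 2.06 and 1.53 (limma, adjusted p = 2.46e-06 and 0.000102).

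In the rhomboid list, 4 of 13 rose and 3 fell, then 2 and 3. Rhbdf1, the gene of iRhom1, rose by 1.55 in MYC_OFF against MYC_HCC (limma, adjusted p = 0.0028) and was also higher in MYC_Twist1_HCC (1.43; limma, adjusted p = 0.0192) and MYC_Recur (1.47; limma, adjusted p = 0.0221) than in MYC_HCC. The last 2 calls were lost without MYC_HCC 4 and 5, and without MYC_Twist1_HCC 5 and MYC_Recur 2 in turn. The call in MYC_Recur was also lost when only the groups compared were fitted. Rhbdd1, of the same list, had the opposite sign against MYC_HCC. Its difference was -1.61 in MYC_Twist1_HCC (limma, adjusted p = 0.00876, lost without MYC_HCC 4 and 5) and -1.97 in MYC_Recur (limma, adjusted p = 0.0037). Rhbdl2, an active rhomboid protease, rose from 0.656 ± 0.558 (SD, n = 5) to 44.6 ± 51.7 (SD, n = 3), by 4.20 and 2.63 (limma, adjusted p = 2.18e-06 and 0.00044). Frmd8, which stabilises the iRhoms, fell by 2.21 and 1.47 (limma, adjusted p = 9.06e-06 and 0.000814). Adam17 itself had -0.48, not called (limma, adjusted p = 0.0936), and fell by 0.97 in the Twist1-labelled comparison (limma, adjusted p = 0.00333), a call lost under 2 scalings.

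Magnesium transport had 2 of 10 genes higher and 3 lower, then 2 and 3. Slc41a3, a paralogue of Slc41a1, rose from 0.478 ± 0.356 in MYC_HCC (SD, n = 5) to 43.3 ± 48.7 in MYC_OFF (SD, n = 3), by 4.29 (limma, adjusted p = 2.43e-05), and by 1.99 in the Twist1-labelled comparison (limma, adjusted p = 0.018), the latter lost with a pseudocount of 5 and without MYC_Twist1_OFF 1. Slc41a2 stayed below the filter. Magt1 fell by 1.39 and 1.55 and Nipa2 by 2.10 and 1.75 (limma, adjusted p = 1.23e-05, 1.1e-05, 2.52e-05 and 0.000262). In MYC_Recur, where Slc41a1 was near 0, Cnnm4 and Cnnm2 rose over MYC_HCC by 1.4 and 0.86 (limma, adjusted p = 0.00724 and 0.00945), and the call of Cnnm4 was lost without MYC_Recur 3.

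Among the SUMO genes, 2 of 20 rose and 10 fell, then 0 and 9. Pias2, another SUMO ligase of the PIAS family, had the opposite sign to Pias1, which was chosen by its rise. Pias2 fell from 21.0 ± 2.39 in MYC_HCC (SD, n = 5) to 0.85 ± 0.771 in MYC_OFF (SD, n = 3), by 3.65 and 3.28 (limma, adjusted p = 1.05e-07 and 9.02e-07). Pias4 rose by 0.94 in MYC_OFF (limma, adjusted p = 0.00436) and by 1.27 in MYC_Recur (limma, adjusted p = 0.00442) over MYC_HCC, and Pias3 was not called. Uba2, a subunit of the SUMO activating enzyme, fell by 2.12 in MYC_OFF against MYC_HCC (limma, adjusted p = 3.72e-06). The deconjugating protease Senp2 was higher in MYC_Recur than in MYC_Twist1_HCC, by 1.02 (limma, adjusted p = 0.0132), a call lost without MYC_Recur 3.

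Of the other AP-5 subunits and partners, 1 of 5 was called higher. Ap5b1, the beta subunit, rose by 1.38 and 1.37 (limma, adjusted p = 0.00723 and 0.0105), the first lost without MYC_OFF 1, and reached 6.05 ± 7.01 in MYC_OFF (SD, n = 3). Ap5m1 and Ap5s1 had -0.03 and 0.36 in MYC_OFF against MYC_HCC and were not called (limma, adjusted p = 0.943 and 0.207). Spg11, a partner of AP-5, fell by 0.80 (limma, adjusted p = 0.000991, lost under 2 scalings), and Zfyve26, the other partner, had -0.13 and was not called. Over all adaptor complexes 2 of 24 rose and 11 fell in both comparisons, with Ap1s1 down by 2.69 and 2.36 and Ap3s1 by 3.81 and 3.36 (limma, adjusted p = 6.4e-08, 7.07e-07, 6.91e-06 and 5.58e-05).

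Of the PDZ and LIM proteins, 1 of 6 tested rose and 3 fell, then 0 and 2. Pdlim1 rose by 0.65 (limma, adjusted p = 0.026, lost without MYC_HCC 4 or MYC_OFF 2) and Pdlim7 fell by 0.88 (limma, adjusted p = 0.0113, lost under all 3 scalings), both in MYC_OFF against MYC_HCC. Both calls were also lost when only the groups compared were fitted. Actn4, an actin crosslinker, fell by 2.52 and 2.21 (limma, adjusted p = 1.06e-06 and 1.12e-05). Small subunit ribosome biogenesis, the process of the yeast counterpart of Fam207a, was the list with the most falls: 18 of 24 genes fell and 2 rose, then 16 and 0, with a median of -1.41 and -1.05 against -0.38 and -0.32 over all genes. Nop58, Ltv1 and Nob1 fell by 2.37, 3.16 and 2.37 in MYC_OFF against MYC_HCC (limma, adjusted p = 2.39e-07, 2.68e-07 and 2.87e-06), and Utp18 rose by 2.15 (limma, adjusted p = 0.00692). Fam207a, at 5.33 and 3.66, lay on the other side of 0 from most of this list, a side set by the rule that chose it.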

How the data were processed

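Total RNA of 19 flash-frozen mouse liver tumor samples was sequenced. The submitters' processing notes name Trimmomatic, STAR, Picard, featureCounts, DESeq2 and mm10, with no versions or roles. The deposited table holds a normalised signal per gene and library. The formula is not given in the sources used here, so depth is unknown and no counting interval is given. Of 19511 rows, 25 whose symbol is a bare number were left out (at most 0.16% of a library's sum).

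Values were taken as log2(value + 1), genes with a value of at least 1 in at least 3 libraries were kept (13253), and the 5 groups were fitted together with limma 3.58.1 in R 4.3.3 (intensity trend, 14 residual degrees of freedom, two-sided, Benjamini-Hochberg adjustment over all genes per comparison). The script was tested on simulated data. Family lists name up to 2 called genes of smallest p per comparison and the close relatives. For each member, the 2 most alike genes and the nearest neighbours are named. Alternatives were 3 scalings (median of ratios, trimmed mean of M values, upper quartile), pseudocounts of 0.1 and 5, other filters, fewer groups, no trend, a replicate block and libraries left out. The members, lists and tests were chosen with earlier results of these data known.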

Additional observations from a re-analysis of the deposited data

Results flagged for a closer look

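In 3 of 20 groups of 5 libraries (each of the 10 genes in both HCC groups), 1 library lay apart from the other 4 by Dixon's criterion, a gap over the range above 0.71. Chance flags about 1 in 20 such groups where values are normally distributed, which was not tested here. Tfap4 was 15.85 in MYC_Twist1_HCC 1 and at most 3.89 in the other libraries of that group. Slc41a1 was 4.82 in the same library and at most 1.01 in the others. Ap5z1 was 80.97 in MYC_Twist1_HCC 3 and at most 20.12 in the others. Without MYC_Twist1_HCC 3 the call of Ap5z1 between the HCC groups was kept. On the log2(value + 1) scale, a check added after seeing the data, none of these 3 passed, with ratios of 0.496 for Tfap4, 0.680 for Slc41a1 and 0.532 for Ap5z1, and 1 of the 20 groups did, Zdhhc16 in MYC_HCC (0.779).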

How the results depend on the processing

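MYC_Twist1_HCC against MYC_HCC gave 852 calls over all genes, 350 without MYC_HCC 4 and 5 and 389 (without MYC_Twist1_HCC 1) to 893 when 1 library was left out. Without MYC_HCC 5 the count was 466 and without MYC_Twist1_HCC 5 it was 404. MYC_Recur against MYC_HCC gave 1435 calls, 834 without MYC_HCC 4 and 5, and 806 (without MYC_Recur 3) to 1306 with 1 library left out, with 911 without MYC_Recur 2. MYC_Recur against MYC_Twist1_HCC gave 863 calls and 390 (without MYC_Recur 3) to 852 with 1 library left out, with 549 without MYC_Twist1_HCC 5. With a block on the replicate number these counts were 936 for MYC_Recur against MYC_HCC and 550 for MYC_Recur against MYC_Twist1_HCC. Same-numbered libraries of MYC_HCC, MYC_Twist1_HCC and MYC_Recur had correlations of their deviations from -0.09 to 0.15 and not every library correlated best with its own number, so the numbers are not shown to pair these samples. The OFF groups were not checked for pairing.

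Robo1, Ap5z1, Fam207a, Pias1 and Zdhhc16 were called between the HCC groups in all 21 alternatives, Pdlim5 and Fam207a between MYC_Recur and MYC_HCC in all 19, and Fam207a and Pias1 between MYC_Recur and MYC_Twist1_HCC in all 18. With a pseudocount of 0.1, 6 genes were lower in the last comparison. The share of calls that were higher moved under the 3 scalings from 63.7% to between 50.1% and 58% for MYC_Recur against MYC_HCC, from 53.4% to between 37.3% and 38.5% for MYC_Recur against MYC_Twist1_HCC, and from 49.8% to between 49.1% and 60.2% between the HCC groups.

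Between the OFF groups, 0 of the 10 genes were free of overlap with all libraries and 1 without MYC_OFF 1, MYC_OFF 2 or MYC_Twist1_OFF 3. Over all genes tested, with all libraries, 2.13% lay wholly higher and 2.22% wholly lower in MYC_Twist1_OFF. With 1 library left out, the log2(value + 1) difference of MYC_Twist1_OFF against MYC_OFF changed sign for 8 genes. It ran from -0.59 to 1.24 for Tfap4, -0.50 to 0.94 for Robo1, -0.54 to 1.30 for Slc41a1, -0.45 to 0.25 for Ap5z1, -0.16 to 0.05 for Fam207a, -0.43 to 0.66 for Rhbdf2, -0.55 to 0.24 for Zdhhc16 and -0.44 to 0.94 for Zdhhc18. The cause was not tested. The depth of the libraries is unknown, and the number of libraries limits the precision.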
